A study of Mus musculus with 16 samples.

Results

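The genes that copy DNA and supply its building blocks were followed in the newborn mouse brain. A list of 41 genes was chosen by function: the loading of replication origins, the MCM helicase and its activation, the sliding clamp and its loader, the primase and polymerases, single-strand binding, the joining of Okazaki fragments, the supply of deoxynucleotides and the entry into S phase. Of these, 40 were measured, among 26473 genes and features tested. Ccne2, a cyclin that drives S phase entry, was well above background on 0 of 16 arrays and was not tested.

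RNA of 16 brains from C57BL/6 mice at postnatal day 1 was hybridised to one-colour arrays, 1 animal per array. The heated group were 4 offspring of freeze-dried sperm that had been kept at 95 °C for 1 h, the irradiated group 4 offspring of freeze-dried sperm irradiated at a dose of 5 Gy, the freeze-dried group 4 offspring of freeze-dried sperm with neither treatment, and the fresh group 4 offspring of fresh sperm. The sperm alone were treated, and 3 of the 4 groups share the freeze-drying. The labels number the neonates without giving litters, so animals of a group may be littermates, and the p-values measure only the spread between these animals. A level is the log2 signal of a probe after subtraction of its array's 75th percentile, so levels of different genes are not compared with each other. Differences are between group means of the log2 level, with their standard error (SE), and a gene passed when limma gave it a Benjamini-Hochberg adjusted p under 0.05 over all genes and features tested.

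Replication starts where the origin recognition complex, with Cdc6 and Cdt1, loads the ring-shaped MCM helicase onto DNA. In S phase the ring is activated by Cdc45 and the GINS complex, polymerases held by the Pcna clamp copy the strands, and ribonucleotide reductase, thymidylate synthase and thymidine kinase provide deoxynucleotides. Many of these genes are targets of E2F transcription factors and are transcribed in dividing cells, which in the newborn brain are mainly progenitors of neurons and glia.

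Promoters are shown because E2F letters were more frequent before and at the start of these genes than of all genes, though most windows of the group lack them. RefSeq promoter windows (250 bases before to 50 after the start, GRCm38.p6) matched 32 of the 41 genes. The letters TTTGGCGC, TTTCGCGC or GGCGGGAA on either strand were found in 13 of these 32 windows (40.6%), against 3.39% of the windows of 27025 genes. CCAAT, the letters bound by NF-Y, stood in 62.5% of the windows of the group and 41.1% of all windows, and TTTGAA or TTCGAA, the letters of the cell cycle homology region, in 18.8% of the windows of the group and 21.7% of all windows. The sequences below lie before the start of 4 genes with an E2F match there, with E2F letters in capitals. They were taken in the order of the smallest p between the heated and the freeze-dried group. Genes with matches only after the start, such as Mcm7, Pold1, Lig1, Mcm3 and Rfc4, were passed over. Orc1 itself differed little between these groups (means -4.15 and -4.07) and did not pass there. The stretch of Rrm1 is chr7:102441445-102441694 on the plus strand, that of Mcm5 chr8:75109259-75109467 on the plus strand, that of Rfc3 chr5:151651209-151651458 on the minus strand and that of Orc1 chr4:108579204-108579453 on the plus strand. The Mcm5 stretch is 209 bases long, since the annotated gene begins inside the window, and the Orc1 stretch starts 3499 bases inside the longest annotated span of that gene.
Rrm1: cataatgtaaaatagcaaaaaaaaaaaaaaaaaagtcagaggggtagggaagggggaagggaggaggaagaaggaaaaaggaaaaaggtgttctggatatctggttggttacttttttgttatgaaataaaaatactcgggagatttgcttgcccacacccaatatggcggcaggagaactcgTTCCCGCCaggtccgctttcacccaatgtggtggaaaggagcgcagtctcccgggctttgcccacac
Mcm5: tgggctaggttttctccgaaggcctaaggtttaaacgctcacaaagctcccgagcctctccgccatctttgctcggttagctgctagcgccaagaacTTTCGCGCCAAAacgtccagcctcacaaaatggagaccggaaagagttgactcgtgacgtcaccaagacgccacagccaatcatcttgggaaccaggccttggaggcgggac
Rfc3: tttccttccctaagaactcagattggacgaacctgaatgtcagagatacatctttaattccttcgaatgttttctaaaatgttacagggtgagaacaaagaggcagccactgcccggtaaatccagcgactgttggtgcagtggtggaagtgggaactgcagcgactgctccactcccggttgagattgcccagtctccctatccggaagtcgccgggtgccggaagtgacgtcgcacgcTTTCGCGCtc
Orc1: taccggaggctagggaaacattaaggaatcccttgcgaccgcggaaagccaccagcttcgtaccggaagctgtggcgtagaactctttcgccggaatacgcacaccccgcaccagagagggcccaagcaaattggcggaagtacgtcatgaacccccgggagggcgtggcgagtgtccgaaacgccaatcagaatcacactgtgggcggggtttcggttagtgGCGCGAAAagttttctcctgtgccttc
In Mcm5 the capitals cover TTTCGCGC and, overlapping it on the other strand, TTTGGCGC; Rrm1 has GGCGGGAA on the other strand. Among genes with an E2F match, 4 of 13 fell in the heated against the freeze-dried group and 11 were below 0 (median log2 difference -0.17). Among genes with a window but no match, 1 of 19 fell and 16 were below 0 (median -0.20). Of all genes and features 1.36% fell and 46.3% were below 0. Whether a match goes with a lower level was not tested. A match is a stretch of letters and no evidence of binding.

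The arrays lay on 2 slides: slide 2 held all 4 heated, irradiated 3 and 4 and fresh 3 and 4, and slide 1 held irradiated 1 and 2, all 4 freeze-dried and fresh 1 and 2, so heated and freeze-dried offspring never shared a slide. Hoxb5, a hindbrain transcription factor gene, had levels of -7.17 in heated 2, -7.75 in heated 4, -6.05 in freeze-dried 2 and -7.49 in fresh 2, and lay between -1.61 and 1.12 in the other animals. Pcp2, a Purkinje cell gene, showed levels of -2.55 for heated 2 and -3.73 for heated 4, and Atoh1, a gene of cerebellar granule cell precursors, was at -7.22 in heated 2 and -6.93 in heated 4, while Pcp2 lay between 0.81 and 1.24 and Atoh1 between -2.97 and -1.88 in the other animals. Gh, the growth hormone gene of the pituitary, reached 2.71 in heated 1, 2.38 in freeze-dried 1 and 2.87 in fresh 3. The skeletal muscle genes Acta1, Myh3 and Tnnc2 were at 1.77, 0.65 and 1.94 in fresh 1. In the other animals they lay at -1.59 to -1.07, -3.32 to -2.41 and -4.31 to -1.51. The skin genes Krt14 and Krt5 were at 2.49 and 2.33 in freeze-dried 2, and at -3.73 to -3.06 and -7.31 to -5.09 in the other animals. The mean of 4 Y-linked genes, as the deviation from the mean of all arrays, was high in 1 of 4 heated animals (1.88, against -3.60 to -2.96 in the other 3), in 3 of 4 irradiated, in all 4 freeze-dried (1.77 to 2.35) and in 2 of 4 fresh animals. The neuronal genes Map2 (5.88 to 6.12) and Syt1 (4.27 to 4.71) were well above background on all 16 arrays, and Syt1 was higher in the 4 heated animals (4.57 to 4.71) than in the other 12 (4.27 to 4.47).

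Replication genes were lower in the brains of heated offspring than in those of freeze-dried offspring. Of the 40 genes, 5 fell and 0 rose: Mcm5, Mcm7, Pold1, Rrm1 and Tk1, where 1.36% of all genes and features fell. The difference was below 0 for 35 of 40 genes (46.3% of all genes and features), and for 16 of 40 every heated animal lay below every freeze-dried animal (8.89% of all). An unadjusted p under 0.05 was reached by 20 genes, all of them lower, against 10.9% of all genes and features. The median log2 difference of the 40 genes was -0.17, against 0.02 over all genes and features, and the 35 genes that did not pass ranged from -0.46 for Cdc6 to 0.14 for Fen1. RNA of whole brain does not tell fewer dividing cells from less of each transcript per cell: these cannot be told apart. With slide as a term in the fit, or without heated 2 and 4, 0 of the 40 genes passed in this comparison.

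**Figure D1:**
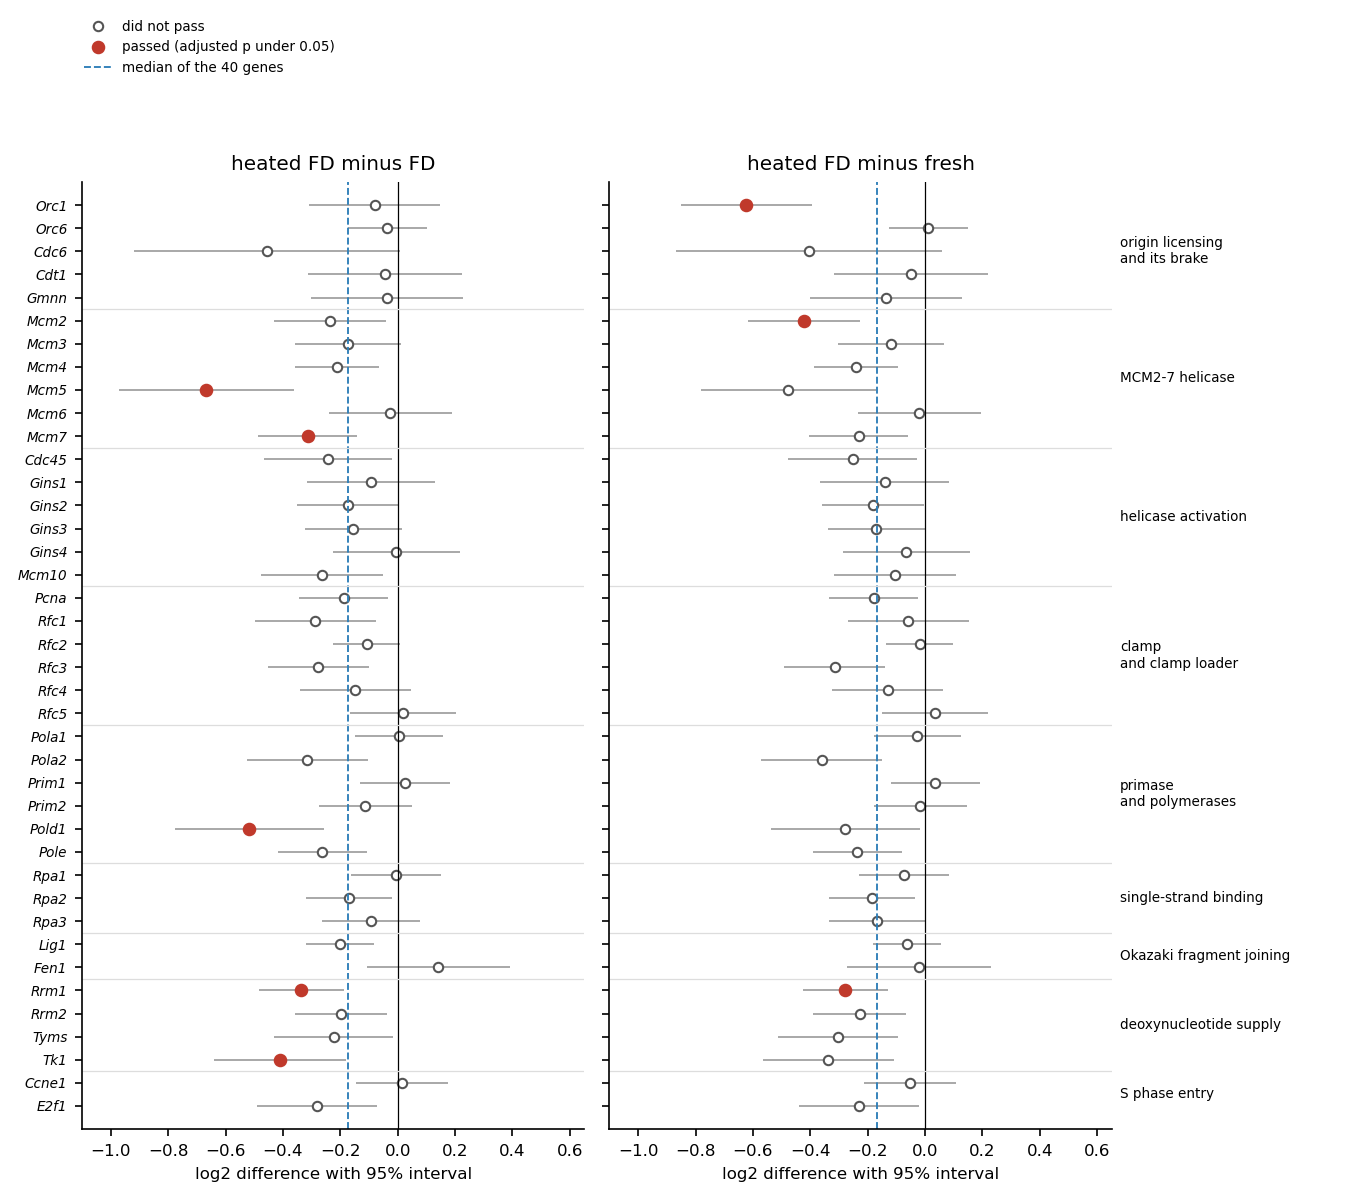
Log2 differences of the 40 measured genes with 95% intervals, for heated minus freeze-dried offspring (left) and heated minus fresh offspring (right), ordered by role; filled circles passed, and the dashed line is the median. The 5 genes that passed on the left are Mcm5, Mcm7, Pold1, Rrm1 and Tk1, the 3 on the right Orc1, Mcm2 and Rrm1, and the medians are -0.17 on both sides.

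Among the genes of origin loading, Orc1 set apart the offspring of fresh sperm. Orc1, at chr4:108575705-108616030, encodes the largest subunit of the origin recognition complex. Its level was -4.11, -4.30, -4.01 and -4.17 in heated, -4.06, -4.22, -4.06 and -3.95 in irradiated and -3.97, -3.96, -4.13 and -4.20 in freeze-dried offspring, against -3.19, -3.66, -3.59 and -3.65 in fresh offspring. All 12 offspring of freeze-dried sperm of any kind (-4.30 to -3.95) thus lay below all 4 fresh animals (-3.66 to -3.19), and among the 40 genes this held for Orc1 only, against 0.249% of all genes and features. Orc1 fell in heated against fresh offspring by 0.62 on the log2 scale (SE 0.105, adjusted p = 0.00911 by limma), and in irradiated against fresh offspring by 0.55 (SE 0.105, adjusted p = 0.0264). With normexp background correction these differences were -0.33 (adjusted p = 0.0355) and -0.33 (adjusted p = 0.0530). In freeze-dried against fresh offspring the log2 difference was of like size, -0.54 (SE 0.105), and did not pass (adjusted p = 0.282). The 3 comparisons share the same fresh animals. Without any 1 array, Orc1 kept its call between heated and fresh offspring in 16 of 16 fits (highest adjusted p 0.0382); between irradiated and fresh offspring it lost the call without irradiated 1, 2 or 3 (highest adjusted p 0.0923). Within slide 2, which holds both groups, the difference between heated and fresh offspring was -0.53 (adjusted p = 0.118 by limma). Between irradiated and fresh offspring the difference was -0.72 within slide 1 and -0.39 within slide 2, and Orc1 passed in neither.

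A dimmer Orc1 probe was well above background on 5 of 16 arrays and was not used. The other genes of origin loading did not pass in any comparison. Cdc6, which with Cdt1 brings the helicase to the origin, averaged -2.36 ± 0.23 in heated and -1.90 ± 0.14 in freeze-dried offspring (SD, n = 4 each). Every heated animal lay below every freeze-dried animal for Cdc6, and the adjusted p was 0.211. Orc6, Cdt1 and Gmnn, whose product geminin blocks Cdt1, differed between heated and freeze-dried offspring by -0.04 each.

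Between heated and freeze-dried offspring the largest of the 40 differences was in the helicase. Mcm5, at chr8:75109468-75128439, encodes a subunit of the MCM ring. Its level was 0.82, 0.69, 0.85 and 0.71 in heated offspring, against 1.39, 1.57, 1.48 and 1.31 in freeze-dried offspring. The groups did not overlap, and Mcm5 fell by 0.67 on the log2 scale (SE 0.140, adjusted p = 0.0228 by limma), to 0.630 of the freeze-dried signal. Mcm7, at chr5:138164583-138172111, another subunit of the ring, was at 2.76, 2.78, 2.73 and 2.78 in heated offspring, against 3.09, 3.14, 3.07 and 3.01 in freeze-dried offspring. It fell by 0.31 (SE 0.0795, adjusted p = 0.0443), and the groups did not overlap. Mcm7 has a dimmer probe that pointed the other way, at a log2 difference of 0.15, so its call rests on 1 of 2 probes (mean of the probes -0.08, adjusted p = 0.511). Without 1 array, Mcm5 lost its call when freeze-dried 2, freeze-dried 3, heated 2 or heated 4 was left out (log2 differences -0.71 to -0.62 over all 16 fits), while Mcm7 lost it without any 1 of the heated or freeze-dried animals, irradiated 2, 3 or 4 or fresh 4, and kept it in 4 of 16 fits (-0.34 to -0.29).

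Mcm2, at chr6:88883474-88898780, another subunit of the ring, was at -0.26, -0.44, -0.21 and -0.33 in heated, -0.28, -0.24, -0.20 and 0.06 in irradiated and -0.07, 0.11, -0.13 and -0.20 in freeze-dried offspring, against 0.09, 0.27, 0.04 and 0.05 in fresh offspring. It was lower in every heated than in every fresh animal and fell by 0.42 (SE 0.0894, adjusted p = 0.0226 by limma), a call lost without fresh 2, heated 2 or heated 4 (-0.46 to -0.37 over all 16 fits). Against freeze-dried offspring the heated difference was -0.24 (adjusted p = 0.130). Mcm3, Mcm4 and Mcm6, the remaining subunits, differed between heated and freeze-dried offspring by -0.17, -0.21 and -0.03 and did not pass. The 6 genes of the ring had a median log2 difference of -0.22 in heated against freeze-dried and of -0.24 in heated against fresh offspring.

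**Figure D2:**
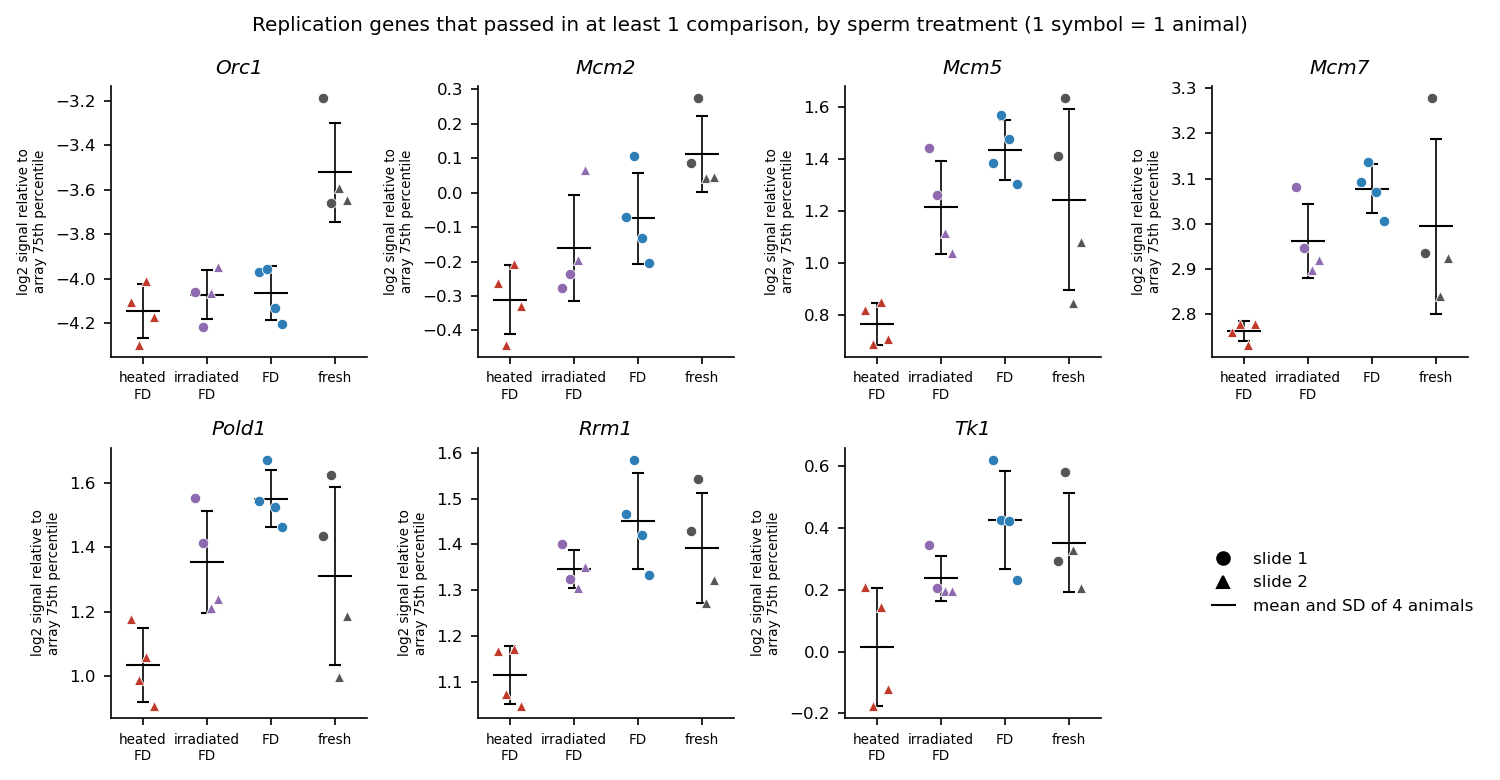
Log2 signal relative to the 75th percentile of the array in each of the 16 animals, by group, for the 7 genes that passed in at least 1 comparison; circles are slide 1, triangles slide 2, bars the mean and SD of 4 animals. Orc1 is lower in all 12 offspring of freeze-dried sperm than in the 4 fresh animals, and for Mcm5 and Pold1 the fresh and irradiated animals on slide 2 lie nearer to the heated ones than those on slide 1.

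No factor that activates the ring passed. Cdc45, Gins1 to Gins4 and Mcm10, which build and start the active helicase, ranged from -0.26 to -0.01 between heated and freeze-dried offspring, and 0 of 6 passed. Mcm10 averaged -0.58 and Cdc45 -3.32 in heated offspring, against -0.32 and -3.07 in freeze-dried offspring, and for each of them no heated animal reached the freeze-dried range.

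Of the clamp and its loader 0 of 6 genes passed. Pcna, the clamp that holds polymerases on DNA, was at 3.82, 3.85, 3.81 and 3.84 in heated offspring and at 3.87 to 4.17 in the other 12 animals. Pcna, Mcm7 and Rrm1 were the 3 of 40 genes for which all 4 heated animals lay below all 12 others, against 0.771% of all genes and features. The loader subunits Rfc1 to Rfc5 differed between heated and freeze-dried offspring by -0.29 to 0.02, and 0 of 5 passed. Rfc3 came nearest (adjusted p = 0.0688), and its dimmer probe had a log2 difference of -0.33 with an adjusted p of 0.0266 in the fit over all probes.

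Of the primase and polymerases, Pold1 passed. Pold1, at chr7:44532744-44548815, encodes the catalytic subunit of polymerase delta, which copies mainly the lagging strand. Its level was 1.18, 0.99, 1.06 and 0.91 in heated offspring, against 1.54, 1.67, 1.52 and 1.46 in freeze-dried offspring, with no overlap. It fell by 0.52 (SE 0.119, adjusted p = 0.0315 by limma), to 0.699 of the freeze-dried signal, and lost its call without freeze-dried 1, 2 or 3 or heated 2, 3 or 4 (-0.57 to -0.48 over 16 fits). Pole, the catalytic subunit of polymerase epsilon, and Pola2, a subunit of polymerase alpha, differed by -0.26 (adjusted p = 0.0563) and -0.32 (adjusted p = 0.0779), again with no overlap. Pola1, Prim1 and Prim2, the catalytic subunit of polymerase alpha and the primase that lays down its primers, differed by -0.11 to 0.03.

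Rpa1, Rpa2 and Rpa3, whose products coat single-stranded DNA, did not pass in any comparison. They differed by -0.17 to -0.01 between heated and freeze-dried offspring. The enzymes that finish Okazaki fragments differed in direction: Lig1, the ligase, was at 2.35, 2.31, 2.40 and 2.26 in heated offspring, against 2.56, 2.61, 2.48 and 2.49 in freeze-dried offspring (log2 difference -0.20, adjusted p = 0.0537), while Fen1, the flap nuclease, averaged 1.86 ± 0.06 in heated and 1.72 ± 0.09 in freeze-dried offspring (SD, n = 4 each; adjusted p = 0.481). Lig1 did not overlap between these groups.

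All 4 genes of deoxynucleotide supply were lower at an unadjusted p under 0.05 in heated against freeze-dried offspring (10.9% of all genes and features) and in heated against fresh offspring (6.22% of all). Rrm1, at chr7:102441695-102469771, the large subunit of ribonucleotide reductase, was at 1.17, 1.07, 1.17 and 1.05 in heated, 1.40, 1.32, 1.31 and 1.35 in irradiated and 1.47, 1.59, 1.42 and 1.33 in freeze-dried offspring, against 1.43, 1.54, 1.27 and 1.32 in fresh offspring. It fell in heated against freeze-dried offspring by 0.34 (SE 0.0681, adjusted p = 0.0194 by limma) and against fresh offspring by 0.28 (adjusted p = 0.0430). Rrm1 was thus the gene that passed against freeze-dried and against fresh offspring alike, comparisons that share the heated animals. Without 1 array, the call against freeze-dried offspring was lost when freeze-dried 2, heated 2 or heated 4 was left out (-0.38 to -0.29 over 16 fits), and the call against fresh offspring was kept in 3 of 16 fits, those without freeze-dried 2, freeze-dried 4 or fresh 3 (-0.32 to -0.23). Tk1, at chr11:117815519-117826087, the thymidine kinase of dividing cells, was at 0.21, -0.17, 0.14 and -0.12 in heated offspring, against 0.62, 0.43, 0.42 and 0.23 in freeze-dried offspring. It fell by 0.41 (SE 0.105, adjusted p = 0.0457), and its dimmer probe by 0.51 (adjusted p = 0.0282 in the fit over all probes). The heated range of Tk1 ended just under the lowest freeze-dried animal, and its call was kept in 5 of 16 fits, those without heated 1, freeze-dried 4 or fresh 1, 2 or 3 (-0.48 to -0.35). Rrm2, the small subunit of the reductase, and Tyms, thymidylate synthase, differed by -0.20 and -0.22 (adjusted p = 0.128 and 0.173).

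E2f1, the transcription factor that many of these genes answer to, averaged -0.78 in heated and -0.50 in freeze-dried offspring and overlapped between them (log2 difference -0.28, adjusted p = 0.0982). Ccne1, the cyclin of S phase entry that could be measured, differed by 0.01. Over the 16 dimmer probes of 15 genes, 15 were lower in heated than in freeze-dried offspring, 5 of them with an adjusted p under 0.05 (1.49% of all probes fell): those of Mcm3, Gins1, Rfc3, Tyms and Tk1. The probe that was higher was that of Mcm7, and that of Pola1 was lower (-0.21) where the brighter probe was at 0.00. In heated against fresh offspring all 16 were lower, and those of Mcm3 and Tyms fell (0.698% of all probes).

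Between heated and fresh offspring 3 of 40 genes fell, Orc1, Mcm2 and Rrm1, and 0 rose, where 0.54% of all genes and features fell. The difference was below 0 for 37 of 40 genes (42.1% of all), 19 had an unadjusted p under 0.05, all lower (6.22% of all), 12 of 40 did not overlap with the heated animals lower (3.78% of all), and the median was -0.17 against 0.03 over all genes and features. Mcm5, Mcm7, Pold1 and Tk1, which fell against freeze-dried offspring, differed from fresh offspring by -0.48, -0.23, -0.28 and -0.34 and did not pass. Between heated and irradiated offspring 0 of 40 genes passed by limma (0.472% of all fell), 9 had an unadjusted p under 0.05, all lower (6.57% of all), 34 were below 0 (48.9% of all), and 7 did not overlap with the heated animals lower (6.19% of all). The smallest p were those of Rrm1 (-0.23, adjusted p = 0.130), Lig1 (-0.18, adjusted p = 0.141) and Mcm5 (-0.45, adjusted p = 0.152). Lig1 in irradiated offspring was at 2.50, 2.54, 2.53 and 2.46 and Mcm5 at 1.44, 1.26, 1.12 and 1.04, each above all heated animals. The median difference was -0.12, against 0.00 over all genes and features.

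Between irradiated and freeze-dried offspring 0 of 40 genes passed by limma, where 0% of all genes and features passed, and 3 had an unadjusted p under 0.05, all lower (3.11% of all). These were Gins3, a subunit of GINS, at 3.07, 2.95, 2.93 and 2.89 in irradiated and 3.17, 3.34, 3.10 and 2.99 in freeze-dried offspring, Pola2 at -3.21, -3.37, -3.46 and -3.24 in irradiated and -3.24, -3.04, -3.00 and -3.16 in freeze-dried offspring, and Rfc3 at 1.61, 1.38, 1.49 and 1.41 in irradiated and 1.76, 1.61, 1.63 and 1.60 in freeze-dried offspring. All 3 overlapped between the groups, as did every other gene of the 40 with a lower irradiated mean (1.82% of all genes and features lay apart with the irradiated animals lower), and the smallest adjusted p was 0.684. Differences were below 0 for 26 of 40 genes (45.1% of all), with a median of -0.05, against 0.02 over all genes and features. A difference had a median 95% interval of ± 0.18 on the log2 scale, so changes smaller than this would mostly not be told from 0.

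Between irradiated and fresh offspring Orc1 was the 1 gene of 40 that passed (0.51% of all genes and features fell), and 6 were lower at an unadjusted p under 0.05 (6.3% of all). Mcm2, whose values are given above, differed by -0.27 (adjusted p = 0.145). Rpa3 was at 2.21, 1.97, 2.09 and 2.24 in irradiated and 2.35, 2.50, 2.33 and 2.25 in fresh offspring, a difference of -0.23 (adjusted p = 0.154). The irradiated animals lay below the fresh ones for 3 of 40 genes, Orc1, Gins3 and Rpa3 (3.55% of all), and above them for 1, Lig1 (5.54% of all). Differences were below 0 for 22 of 40 genes (41.1% of all), with a median of -0.03, against 0.03 over all genes and features.

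Between freeze-dried and fresh offspring 0 of 40 genes passed by limma, where 0% of all genes and features passed, and 3 had an unadjusted p under 0.05 (9.93% of all). These were Orc1, lower, and Lig1 and Rfc1, higher. Lig1 was at 2.56, 2.61, 2.48 and 2.49 in freeze-dried and 2.28, 2.40, 2.45 and 2.45 in fresh offspring (log2 difference 0.14, adjusted p = 0.443). It was the 1 gene of 40 that lay apart with the freeze-dried animals higher (2.6% of all), and Orc1 the 1 gene that lay apart with them lower (1.56% of all). Rfc1 was at 1.97, 1.89, 1.97 and 1.80 in freeze-dried and 1.77, 1.91, 1.43 and 1.60 in fresh offspring (0.23, adjusted p = 0.472), and the low values are those of the fresh animals on slide 2. Differences were below 0 for 20 of 40 genes (44.7% of all), and their median was 0.00, against 0.02 over all genes and features.

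Lists of neighbouring steps were counted in heated against freeze-dried offspring, where 1.36% of all genes and features fell, 2.5% rose and 46.3% were below 0. Of 28 mitosis genes 9 fell and 0 rose, with all 28 differences below 0 and a median of -0.31. Among them were Mki67, the proliferation marker (2.21, 1.98, 2.25 and 2.03 in heated, against 2.55, 2.53, 2.60 and 2.50 in freeze-dried offspring, adjusted p = 0.0107), Tpx2, a spindle assembly factor (-0.60, adjusted p = 0.0157), and Top2a, the topoisomerase that untangles sister chromatids (-0.30, adjusted p = 0.0450). Of 34 further replisome and licensing genes 4 fell and 0 rose, with 27 below 0 and a median of -0.13: Dbf4, which activates the origin kinase Cdc7 (-0.64), Wdhd1, which tethers polymerase alpha to the helicase (-0.30), Chtf18, of an alternative clamp loader (-0.26), and Chaf1a, which places histones on new DNA (-0.22). Of 28 further nucleotide supply genes 2 fell and 0 rose, with 16 below 0 and a median of -0.02; 1 of the 2 was Shmt2, a mitochondrial enzyme of the one-carbon cycle (-0.29, adjusted p = 0.0283). Of 27 genes of G1/S control, Myc rose (0.42, adjusted p = 0.0134) and Ccna2 (-0.40), Cdkn1c (-0.27), Cdc25a (-0.28) and E2f8 (-0.36) fell, with a median of -0.14. Ccna2 is the cyclin of S phase, Cdc25a a phosphatase that releases its kinase, E2f8 a repressor of E2F targets and Cdkn1c a cyclin kinase inhibitor.

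In heated against fresh offspring 3 mitosis genes (Cenpa, Cdc20 and Mki67), 3 further replisome genes (Chaf1a, Clspn and Wdhd1), 2 nucleotide genes (Shmt2 and Gart) and 1 G1/S gene (Cdk4) fell, and 0 of these lists' genes rose (0.54% of all genes and features fell and 2.39% rose). Clspn, the checkpoint mediator claspin, had the largest of these differences (-0.70, adjusted p = 0.0190). In irradiated against fresh offspring 2 of 34 further replisome genes fell, Atad5 (-0.31), which helps to unload the clamp, and Rif1 (-0.30), a timing factor of origins. Of 28 further nucleotide genes 1 fell, Gart (-0.22), an enzyme of purine synthesis (0.51% of all genes and features fell). In heated against irradiated offspring, of 34 further replisome genes Atad5 (0.36) rose and Chtf18 (-0.27) fell, and of 27 G1/S genes Myc (0.36) rose (0.536% of all genes and features rose and 0.472% fell). Between freeze-dried and fresh and between irradiated and freeze-dried offspring 0 genes of these lists passed, as did 0 of all genes and features. The median of the 28 mitosis genes in heated against irradiated offspring was -0.21, with 13 lower at an unadjusted p under 0.05 (6.57% of all) and 0 passed by limma.

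Markers of cell types differed in both directions. Of 12 neural progenitor genes, 8 were below 0 and 4 above in heated against freeze-dried offspring. Tead2 (-0.62), a transcription factor of the Hippo pathway, and Eomes (-0.62), which marks intermediate progenitors, fell there and 0 rose. Of all genes and features 1.36% fell in that comparison. Against fresh offspring Eomes (-0.67) and Neurog2 (-0.92), a proneural factor, fell (0.54% of all) and Hes5 (0.26), a Notch target, rose (2.39% of all). The mean of these 12 genes, as the deviation from the mean of all arrays, was -0.21 to -0.07 in heated, -0.16 to 0.03 in irradiated, 0.00 to 0.19 in freeze-dried and 0.06 to 0.28 in fresh offspring. Of 10 genes of maturing neurons, 8 were above 0 and 2 below in heated against freeze-dried offspring. Camk2b (0.41), a calmodulin kinase subunit, and Syt1 (0.29), a synaptic vesicle protein, rose there and 0 fell (2.5% of all genes and features rose). Against fresh offspring 6 were above 0 and 4 below, from -0.43 to 0.32. Camk2b (0.32) and Syt1 (0.25) rose there too, and 0 fell (2.39% of all rose). Gap43, another of the 10, had a level of 3.76 for heated 4, whereas the rest of its group spanned 6.59 to 6.72. The mean of the 10 was -0.18 to 0.16 in heated, -0.02 to 0.04 in irradiated, -0.20 to 0.01 in freeze-dried and -0.05 to 0.07 in fresh offspring. Csf1r, a receptor of microglia, rose against fresh offspring (0.45), 1 of 7 genes of leukocytes and microglia. Kdr, a growth factor receptor of endothelium, rose against freeze-dried (0.28) and fresh offspring (0.34), 1 of 4 endothelial genes. Cldn5, the 1 of these 4 that was lower against freeze-dried offspring, differed by -0.34 and did not pass. It was at 3.52 to 3.73 in heated and 3.86 to 4.10 in freeze-dried offspring, with no overlap. En2, 1 of 10 genes of granule precursors, fell against freeze-dried offspring (-0.57), where 1.36% of all genes and features fell. Of 7 ependymal genes 4 rose in heated against freeze-dried offspring (2.5% of all genes and features), among them Ccdc153 (1.06, adjusted p = 0.00377), a gene of motile cilia, and the mean of the 7 was 0.23 to 0.54 in heated, -0.06 to 0.12 in irradiated, -0.24 to -0.01 in freeze-dried and -0.37 to -0.21 in fresh offspring. The mean of 8 hindbrain genes spanned -4.53 to 1.44 in heated, -0.12 to 1.51 in irradiated, -2.01 to 1.48 in freeze-dried and -4.37 to 1.69 in fresh offspring. That of 10 granule precursor genes was -0.74 in heated 2 and -0.59 in heated 4, and -0.06 to 0.25 in the other animals, while that of 5 Purkinje genes was -0.84 in heated 2 and -1.02 in heated 4, and -0.06 to 0.39 in the other animals. In heated against freeze-dried offspring all 5 genes of meninges and fibroblasts were below 0 (median -0.30, 0 passed). All 5 measured erythroid genes were also below 0 (median -0.37, 0 passed), against 46.3% of all genes and features. Against fresh offspring 4 of the 5 meningeal genes were below 0 (median -0.01), against 42.1% of all. The 5 erythroid genes were all above 0 there (median 0.13). The part of these markers in the replication result was not tested.

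The animals were then set side by side. The mean of the 40 genes, again as a deviation, was -0.08, -0.18, -0.09 and -0.13 in heated, 0.05, -0.07, 0.00 and 0.05 in irradiated and 0.12, 0.13, 0.01 and -0.03 in freeze-dried offspring, against -0.02, 0.19, 0.02 and 0.04 in fresh offspring. All 4 heated animals were lower than the other 12. Heated 2 had the lowest level of all 16 animals for 13 of the 40 genes and heated 4 for 6, both brains with low Hoxb5, Pcp2 and Atoh1, and fresh 1 for 9. Fresh 2, also low in Hoxb5, was the highest for 14. Without freeze-dried 2, the brain high in Krt14 and also low in Hoxb5, 0 of the 5 calls between heated and freeze-dried offspring were kept (median -0.14). Without heated 2 and 4, the median log2 difference between heated and freeze-dried offspring was -0.15, with 32 of 40 genes below 0 and 0 passed (0.0151% of all genes and features passed). Mcm5 then differed by -0.60 (adjusted p = 0.191) and Rrm1 by -0.28 (adjusted p = 0.194). Against fresh offspring the median without these 2 brains was -0.13, and 0 of 40 passed, where 0.0189% of all did (Orc1 -0.54, adjusted p = 0.121). These brains were left out as a setting chosen after seeing the data.

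**Figure D3:**
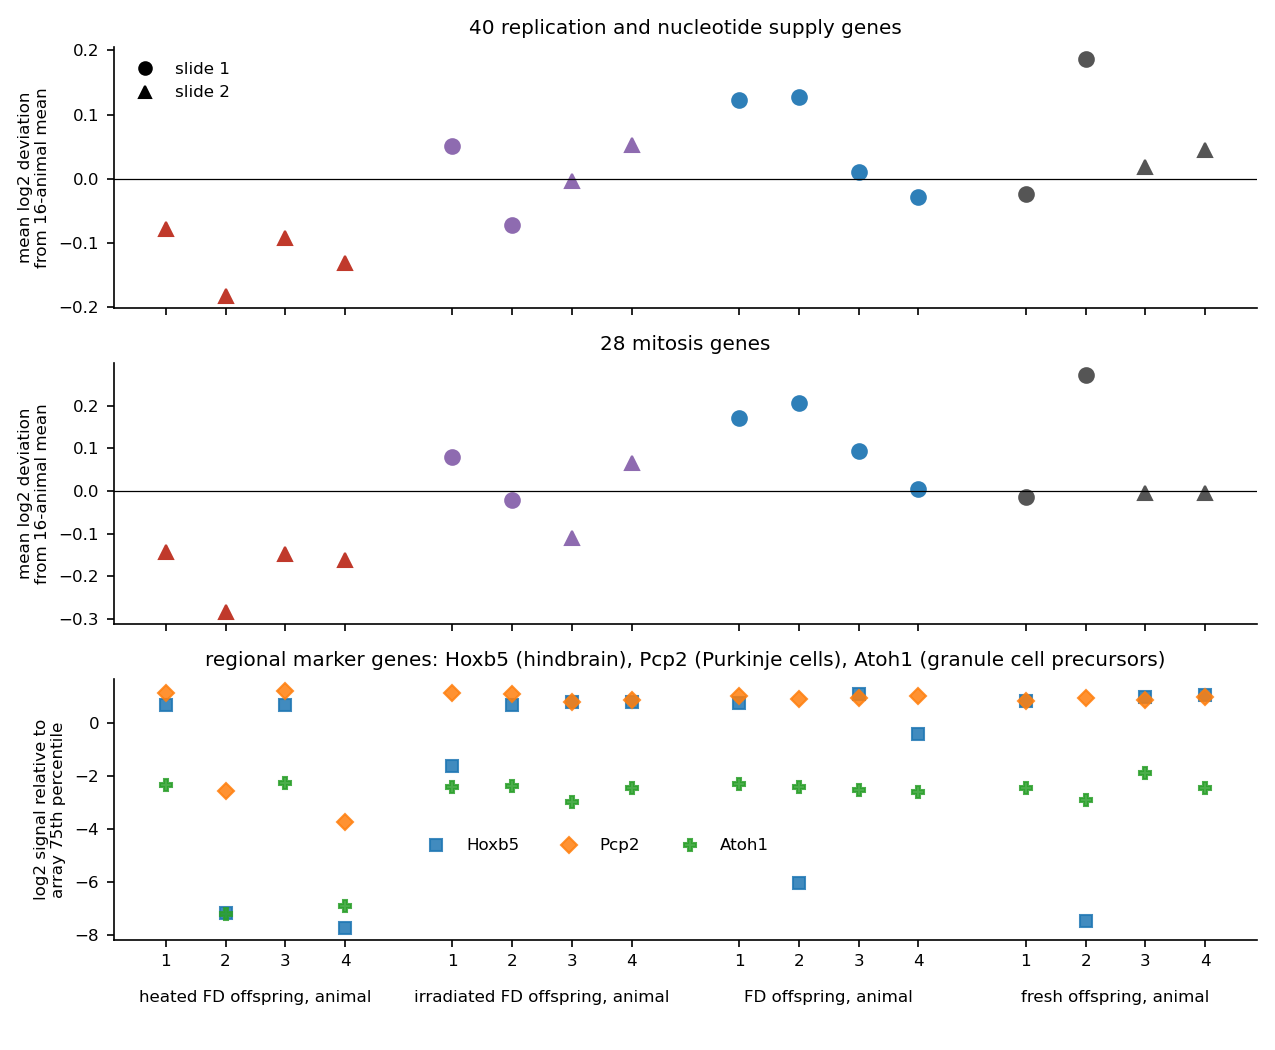
Mean log2 deviation of the 40 replication genes (top) and of 28 mitosis genes (middle) from the mean of all 16 animals, and log2 levels of 3 regional marker genes (bottom), for each animal by group; circles are slide 1, triangles slide 2. The 4 heated animals are the lowest for the replication genes (-0.18 to -0.08), and heated 2 and 4 are low in all 3 regional markers.

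Slide moved with part of the result. With group in the fit, 4 of 40 genes differed between the slides, against 6.52% of all genes and features: Mcm5 (-0.42, adjusted p = 0.0182), Pold1 (-0.35, adjusted p = 0.0221) and Rfc1 (-0.28, adjusted p = 0.0209) were lower on slide 2 and Fen1 higher (0.35, adjusted p = 0.0137). Mcm5 averaged 0.97 in the fresh animals on slide 2 and 1.52 in those on slide 1, and 1.08 and 1.35 in the irradiated animals of the same slides. With slide as a term, Mcm5 differed by -0.25 and Pold1 by -0.17 between heated and freeze-dried offspring, Rrm1 by -0.22, Tk1 by -0.29 and Mcm7 by -0.15, and 0 of the 40 genes and 0% of all genes and features passed by limma. All 40 differences were then below 0, 7 of them with an unadjusted p under 0.05, and their median was -0.15. Since no slide holds both groups, this estimate runs through the fresh and irradiated animals alone. Within slide 2, heated offspring were lower than fresh 3 and 4 for 37 of 40 genes (median -0.14, 0 passed, 0% of all) and lower than irradiated 3 and 4 for 37 of 40 (median -0.14, 0 passed, 1.15% of all). With the Y-linked level as a term 0 of 40 passed between heated and freeze-dried offspring, where 0.536% of all did (median -0.16, Rrm1 adjusted p = 0.0876). With the log2 values of the authors' deposited table in place of the scanner signals 0 of 40 passed in this comparison (median -0.10, 40 of 40 below 0, 7 with an unadjusted p under 0.05; Mcm5 -0.22, Rrm1 -0.15).

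**Figure D4:**
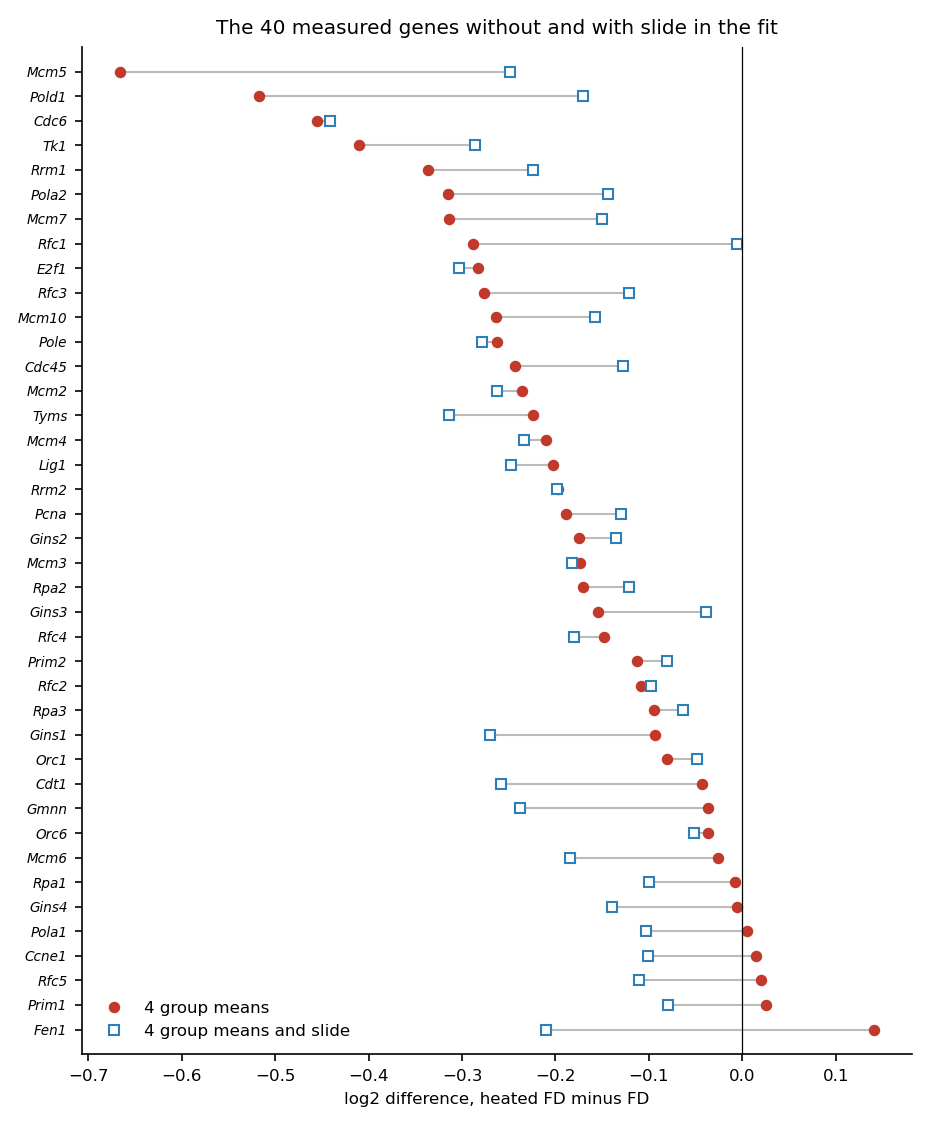
Log2 difference between heated and freeze-dried offspring for the 40 genes, from a fit of the 4 group means (filled circles) and with slide added (open squares). Mcm5, Pold1 and Rfc1 move towards 0, the 5 genes that lay above 0, Fen1 among them, cross it, and with slide all 40 lie below 0.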

How the data were processed

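Total RNA of 16 P1 brains (RNeasy mini kit, per the labels) was labelled with Cy3 and hybridised to 1 array each; per the submitters' processing notes, Agilent's Feature Extraction (11.0.1.1) gave the signals. The intensities used are the processed signals, background-subtracted within each array, per the file headers, with flags for outlier, saturated and dim spots. The authors also deposited a table of log2 values for 31313 probes; how it was scaled or centred is not given in the sources used here, and it served as an alternative.

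Of 62976 spots per array, 3671 controls and, over all arrays, 2043 outlier spots were left out; 0 were saturated, and 59.9 to 66.1% were well above background. Spots of a probe were averaged, log2 signals were centred on the 75th percentile of each array, dim probes were dropped unless some group had them well above background in all 4 animals, and the brightest probe stood for a gene. Symbols came from RefSeq by accession for 32994 probes, by symbol for 12 and by synonym for 18 (33024 of 56605 probes named). limma 3.58.1 in R 4.3.3 fitted 4 group means (two-sided, 12 residual degrees of freedom) with Benjamini-Hochberg adjustment over 26473 genes and features. The fit was tested on simulated data with independent errors and no slide, sex or litter effect, so that test says nothing about such effects. The number of arrays limits the precision.

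The genes and lists were chosen with earlier results of these data known. All 41 genes could be named, with every animal's value for those that passed and, where fewer than 3 passed, for the 3 of smallest p; from other lists, at most 6 genes that passed, by smallest p. The values of 1 gene of these lists are not reported here. Alternatives varied background, normalization, filter, probe choice, slide, arrays, sex and replicate pairing. Same-numbered animals were not treated as pairs, since in no comparison did all 4 pairs correlate over 0.1 (1 to 3 of 4 did).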

Additional observations from a re-analysis of the deposited data

Results flagged for a closer look

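In 8 of 164 groups of 4 animals (4.88%), 1 animal lay far from the other 3 by Dixon's test; chance gives about 1 in 20. Orc1 in fresh 1 was high at -3.19, against -3.66 to -3.59 in the other fresh animals, and Orc1 was lower in all offspring of freeze-dried sperm than in those 3 as well. Tk1 in irradiated 1 was high at 0.35 (others 0.19 to 0.21), and Ccne1 in freeze-dried 3 at 1.09 (others 0.99 to 1.00). Pole in freeze-dried 1 was high at 1.07 (others 0.91 to 0.93), and Cdc6 in freeze-dried 4 was low at -2.12 (others -1.85 to -1.81). Fresh 1 was low for Pola1 at 0.0 (others 0.24 to 0.25) and for Prim1 at 1.80 (others 2.09 to 2.12), both needed to lay down primers. Prim1 was also low in heated 3, at 2.03 (others 2.08 to 2.09). Fresh 1 is the brain with high Acta1, Myh3 and Tnnc2, and the part of muscle tissue in its values was not tested.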

How the results depend on the processing

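No difference of a gene that passed changed sign under any setting tried, and the medians of the 40 genes stayed negative in the 3 heated comparisons. The count of genes that passed between heated and freeze-dried offspring, 5 as reported, was 2 with no filter, 0 with slide as a fixed or a random block, 0 with the Y-linked covariate, 0 without the 4 arrays low in Hox genes (median -0.11, against -0.17 as reported), 2 without the 3 arrays high in Gh, 0 without the 2 arrays low in Pcp2, 0 with the deposited table (median -0.10) and 0 to 7 without 1 animal; with normexp background the median was -0.11 and 30 of 40 genes were below 0. The count between heated and fresh offspring, 3 as reported, was 5 with quantile normalization, 1 with no filter, slide as a fixed block, the deposited table or without the Gh arrays, 0 with 2 groups only, within slide 2 or without the Hox (median -0.083) or Pcp2 arrays, and 1 to 6 without 1 animal. The count between irradiated and fresh offspring, 1 as reported, was 0 with normexp background, no filter, 2 groups only, within slide 1 or 2, or without the Hox or Gh arrays, 3 with the deposited table and 0 to 1 without 1 animal. Between heated and irradiated offspring 1 gene, Mcm5, passed with 2 groups only. Settings with fewer arrays have fewer residual degrees of freedom. The cause of a changed count was not tested for any setting.

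With the replicate number as a block, 6 genes passed in heated against freeze-dried, 3 in heated against fresh and 1 in irradiated against fresh offspring; the labels do not say that the numbers pair animals, and same-number correlations spanned -0.39 to 0.38. In heated against fresh offspring they were 0.08 to 0.38 (median 0.20, against -0.11 for other pairs), a hint from the data and not the design. The block changed no other count. No slide holds both heated and freeze-dried offspring, litters are unknown and 4 animals per group limit the precision.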
